A study of Mus musculus with 4 samples.

Results

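A population of pleural macrophages was selected from single-cell RNA sequencing of malignant pleural effusions in mice. It consisted of cells with RNA of Cd163 or Ccl24 and little RNA of Lyve1, and it is called here the Cd163/Ccl24 macrophages. It held 952 of the 13578 cells kept from 4 libraries, and 952 of the 9001 cells with RNA of Csf1r, the receptor for the macrophage growth factor CSF1. A cell belonged when it had at least 1 unique molecular identifier (UMI, the tag of 1 captured RNA molecule) of Csf1r and at least 3 UMIs of Cd163 plus Ccl24 per 10000 UMIs. It also had to have fewer than 5 UMIs of Lyve1 per 10000, and fewer than 10 of Alox15 plus Prg4. These 6 genes chose the cells, so their levels are given below as a description with no test.

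All mice were C57BL/6 mice with pleural effusions of LLC, a mouse Lewis lung carcinoma cell line. Treatment was given into the pleural space on day 11, and the fluid cells were collected on day 13, 48 h later. Control mice received PBS, and a group received 1 µg of LNP-cGAMP. Another received 30 µg of clone 10F.9G2, an antibody called anti-PD-L1, and the last received both agents. LNP-cGAMP is a lipid nanoparticle that carries cGAMP, a cyclic dinucleotide. Each group was 1 library made from the pooled cells of 3 mice, so no value below has a replicate within a treatment and no test between treatments was made. Sex, age and the share of each mouse in its pool were not in the labels used here. Counting intervals below are 95% intervals that cover counting error only.

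Cd163 is a scavenger receptor on macrophages that takes up haemoglobin bound to haptoglobin. Ccl24, also called eotaxin-2, is a chemokine that attracts eosinophils through the receptor CCR3 and is made by alternatively activated macrophages. Lyve1, a hyaluronan receptor, marks many tissue-resident macrophages. Alox15 and Prg4 mark large resident macrophages of serous cavities. Cyclic dinucleotides such as cGAMP bind STING, which leads to type I interferon production, and antibodies to PD-L1 block a ligand that restrains T cells. In the mm10 genome, Cd163 lies at chr6:124304656-124330527 on the plus strand, Ccl24 at chr5:135569937-135573049 on the minus strand and Lyve1 at chr7:110850607-110863239 on the minus strand.

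The libraries held 68828158 to 88855120 UMIs in all and 2821 to 3830 kept cells. No barcode was shared between Cd163/Ccl24 macrophages of different libraries, and 8 to 19 barcodes were shared between the kept cells of any 2 libraries. The Cd163/Ccl24 macrophages carried 13960194 UMIs in PBS, 3580137 with LNP-cGAMP, 9575132 with anti-PD-L1 and 4120979 with the combination. Their median depth was 32900, 23815, 34359 and 25458 UMIs per cell in the same order. The median share of mitochondrially encoded RNA was 3.24%, 1.22%, 3.19% and 2.24%. Thus both libraries that received LNP-cGAMP had shallower Cd163/Ccl24 macrophages with less mitochondrial RNA, and the part of these differences in the results below was not tested.

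The levels of the genes in the label are given first. Levels are in CPM, the UMIs of a gene per 1000000 UMIs summed over the named cells of a library. Summed over the Cd163/Ccl24 macrophages, Cd163 stood at 573, 565, 512 and 565 CPM in the control, LNP-cGAMP, antibody and combination libraries. Ccl24 stood at 370, 116, 247 and 145 CPM. Within the selected cells Cd163 was at nearly the same level in the 4 libraries, whereas Ccl24 was lower in both libraries that received LNP-cGAMP. The selection required a minimum of these genes together, so it shaped both levels. In all Csf1r cells under the Lyve1 and Alox15 plus Prg4 limits, Cd163 was at 219, 60.6, 122 and 70.8 CPM. Ccl24 was at 158, 16.9, 77.2 and 28.6 CPM there. Before that minimum, both genes were thus lower in both libraries that received LNP-cGAMP. Lyve1 was low but not absent, at 125, 64.8, 136 and 102 CPM, and 55.5%, 30.5%, 54.0% and 38.9% of the cells had at least 1 Lyve1 UMI. The words "without Lyve1" thus hold only as a level under the limit. For comparison, Lyve1 was at 1071, 767, 1041 and 1100 CPM in the Lyve1-high macrophages. These were defined as Csf1r cells at or above that limit, with no limit on Alox15 or Prg4.

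Many cells lay near the limits of the selection. Just inside the Cd163 plus Ccl24 limit, at 3 to 4 UMIs per 10000, were 54, 31, 47 and 30 cells. Just outside, at 2 to 3, were 81, 50, 72 and 74 cells. At 4 to 5 Lyve1 UMIs per 10000 there were 19, 3, 18 and 10 cells inside, and 26, 4, 27 and 7 cells lay just outside at 5 to 6. Only 6, 2, 2 and 7 cells entered through 1 UMI of Cd163 or Ccl24. The median of Cd163 plus Ccl24 was 7.58, 5.66, 6.58 and 6.09 per 10000. The population is a range set by these limits, and whether its cells form a cluster was not tested.

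Markers of other lineages were present at differing levels. Cells with at least 2 UMIs of T, NK or B cell markers, or at least 20 UMIs per 10000 of S100a8 plus S100a9, made up 6.33%, 13.0%, 3.45% and 6.71% of the Cd163/Ccl24 macrophages, most with LNP-cGAMP. Red cell genes summed to 559, 7.82, 157 and 6.31 CPM, and 1 cell held 93.2% of the haemoglobin UMIs in PBS and 96.6% with anti-PD-L1. The summed level of the T cell list ran from 3.37 to 18.4 CPM over the libraries and that of the NK cell list from 0.573 to 14.2 CPM, both highest with LNP-cGAMP. The 8 dendritic cell genes summed to at most 1.94 CPM, and all 8 were at 0 with LNP-cGAMP. Neutrophil genes were higher, at 465, 1352, 287 and 709 CPM for the list of 10, with Camp at 0 in every library and Ltf at 0 in PBS and LNP-cGAMP. The UMIs of S100a8 and S100a9, which encode the neutrophil calgranulins, were concentrated: the top 10 cells held 52.3%, 81.5%, 30.2% and 73.8% of them.

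Cells of both sexes were found in some pools and not in others. A cell was called male when it had UMIs of Y-linked genes and none of Xist, the RNA of the inactive X chromosome, and female when the reverse held. Among the Cd163/Ccl24 macrophages 365 cells were called male in PBS, 118 with LNP-cGAMP, 107 with anti-PD-L1 and 37 with the combination. None, none, 132 and 82 were called female. The anti-PD-L1 and combination pools thus held mice of both sexes and the PBS and LNP-cGAMP pools held only male calls in this population, so antibody treatment and the sex mix cannot be told apart in pooled values. Sex and the individual mouse cannot be told apart either, since a pool held 3 mice.

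The Cd163/Ccl24 macrophages made up 14.6% of all kept cells in PBS (411 of 2821 cells, Clopper-Pearson interval 13.3 to 15.9%). They made up 3.42% with LNP-cGAMP (131 of 3830, 2.87 to 4.05%) and 7.72% with anti-PD-L1 (261 of 3379, 6.85 to 8.68%). With the combination the share was 4.20% (149 of 3548, 3.56 to 4.91%). Among Csf1r cells the shares were 22.5% (20.6 to 24.5%), 5.67% (4.76 to 6.69%), 11.6% (10.3 to 13.0%) and 5.67% (4.82 to 6.63%). PBS had the highest share by either denominator and the intervals of both LNP-cGAMP libraries lay below that of anti-PD-L1. Among Csf1r cells the shares of the 2 LNP-cGAMP libraries had overlapping intervals. Because Cd163 and Ccl24 chose the cells, fewer cells of the type and less of these RNAs per cell cannot be told apart. A share also depends on how many other cells were caught. Csf1r cells under all 3 limits, of Lyve1, of Alox15 plus Prg4 and of Cd163 plus Ccl24, numbered 944, 2135, 1408 and 2005. The part of these numbers in the shares was not tested.

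**Figure D1:**
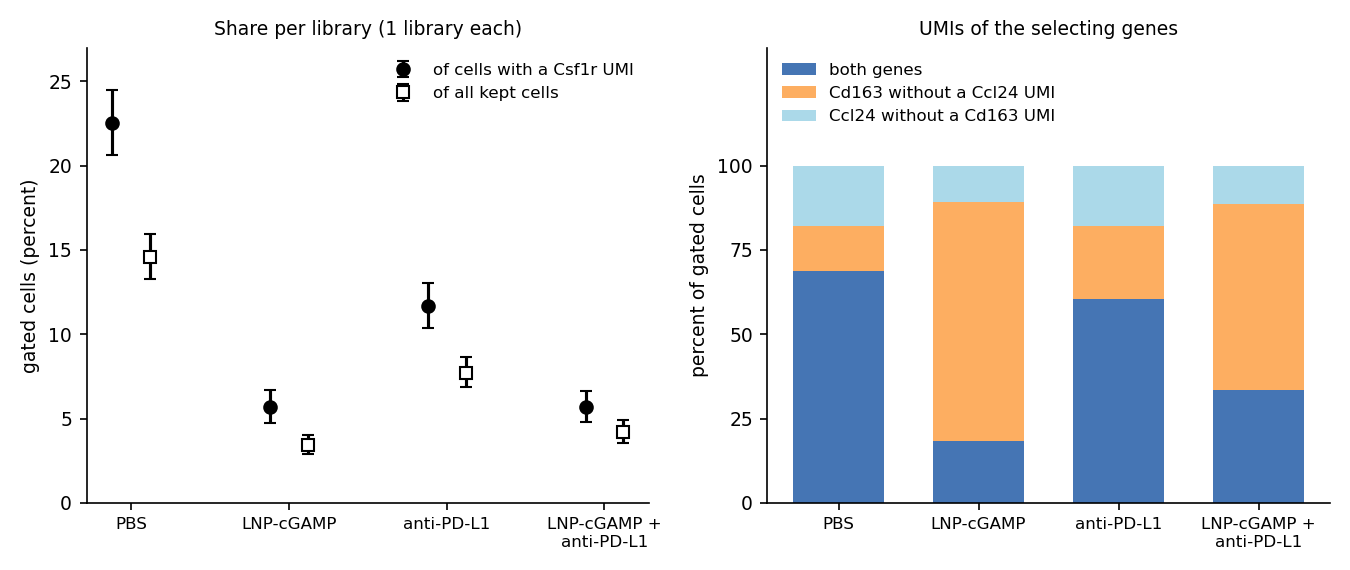
Left, Cd163/Ccl24 macrophages (gated cells) as a percent of Csf1r cells (filled circles) and of all kept cells (open squares) per library, with 95% Clopper-Pearson intervals; right, the percent of these cells with UMIs of both Cd163 and Ccl24 or of 1 of them. PBS is highest, at 22.5% of Csf1r cells, and cells with Cd163 and no Ccl24 UMI are 71.0% of the population with LNP-cGAMP against 13.4% in PBS.

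RNA from broken cells gives a few UMIs in cells that do not make a gene, so the same level was counted in cells that should lack it. Of the lymphocyte-type cells, 2 of 87, 0 of 230, 2 of 157 and 0 of 170 reached 3 UMIs of Cd163 plus Ccl24 per 10000. The Clopper-Pearson upper bounds for the counts of 0 were 1.59% with LNP-cGAMP and 2.15% with the combination. Their median depths were 5305, 12866, 7168 and 12915 UMIs. Of the neutrophil-type cells, with median depths of 2118.5 to 2507 UMIs, 5.99%, 0.734%, 2.02% and 1.93% reached it. Among Csf1r cells under the Lyve1 and Alox15 plus Prg4 limits, the corresponding shares were 30.3%, 5.78%, 15.6% and 6.92%. The level was thus reached more often in the Csf1r cells than in either background type in each library.

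PBS was also highest and anti-PD-L1 second when cells were thinned to 5000 UMIs each, which gave the cells used equal depth. The shares of Csf1r cells were then 25.4%, 6.01%, 13.9% and 7.32%. Only kept cells with at least 5000 UMIs entered, 1836, 2630, 2353 and 2727 of them. At that depth the limit of 3 per 10000 is not a whole number of UMIs, so it was in effect stricter. A limit of 6 UMIs per 10000 gave 14.5%, 2.60%, 6.60% and 2.89%. Cd163 alone gave 13.2%, 4.59%, 6.96% and 4.07%, and Ccl24 alone gave 10.5%, 0.779%, 4.64% and 1.29%. PBS was highest under each of these settings.

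The makeup of the population also differed between libraries. In PBS, 68.9% of the cells (283 of 411) had UMIs of both Cd163 and Ccl24, and with anti-PD-L1 60.5% did (158 of 261). With LNP-cGAMP this share was 18.3% (24 of 131) and with the combination 33.6% (50 of 149). Cells with Cd163 and no Ccl24 UMI made up 13.4%, 71.0%, 21.5% and 55.0%. Cells with Ccl24 and no Cd163 UMI made up 17.8%, 10.7%, 18.0% and 11.4%. In the libraries that received LNP-cGAMP the population was thus mostly Cd163 cells without a Ccl24 UMI. Requiring UMIs of both genes, an alternative chosen after the data were seen, lowered the shares of Csf1r cells to 15.5%, 1.04%, 7.05% and 1.90%.

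These subsets had different profiles in each library. In PBS the cells with Ccl24 alone had 1372 CPM of Fn1, which encodes the matrix protein fibronectin, against 329 CPM in cells with both genes and 236 CPM in cells with Cd163 alone. Ccr2, the receptor that monocytes follow out of the marrow, was at 592, 164 and 130 CPM in the same order. The cells with Cd163 alone had 2905 CPM of the chemokine Ccl8, against 963 CPM in cells with both genes and 240 CPM in cells with Ccl24 alone. Folr2, a folate receptor of resident macrophages, was at 652, 658 and 344 CPM. In the other libraries Ccr2 was likewise highest, and Folr2 lowest, in the cells with Ccl24 alone. The cells with Ccl24 alone were also the shallowest, at a median of 16961 UMIs in PBS against 35510 in cells with both genes.

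The markers that the selection did not use were followed next: Mrc1, the mannose receptor CD206, Stab1, the scavenger receptor stabilin-1, and Nrp1, the receptor neuropilin-1. Mrc1 was at 482, 275, 399 and 405 CPM in the Cd163/Ccl24 macrophages and at 330, 188, 271 and 267 CPM in the other Csf1r cells. Those other cells are the 6492 Csf1r cells under the Lyve1 and Alox15 plus Prg4 limits that lacked the Cd163 plus Ccl24 level. Stab1 was at 367, 154, 268 and 240 CPM against 218, 130, 176 and 187 CPM. Nrp1 was at 391, 155, 306 and 226 CPM against 272, 158, 235 and 207 CPM. Mrc1 and Stab1 were higher in the Cd163/Ccl24 macrophages in all 4 libraries, and Nrp1 in 3 of 4. In the Lyve1-high macrophages Mrc1 was at 539, 380, 479 and 465 CPM, Stab1 at 333, 199, 253 and 247 CPM, and Nrp1 at 345, 220, 294 and 246 CPM. All 3 markers were lowest with LNP-cGAMP in each of the 3 populations.

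**Figure D2:**
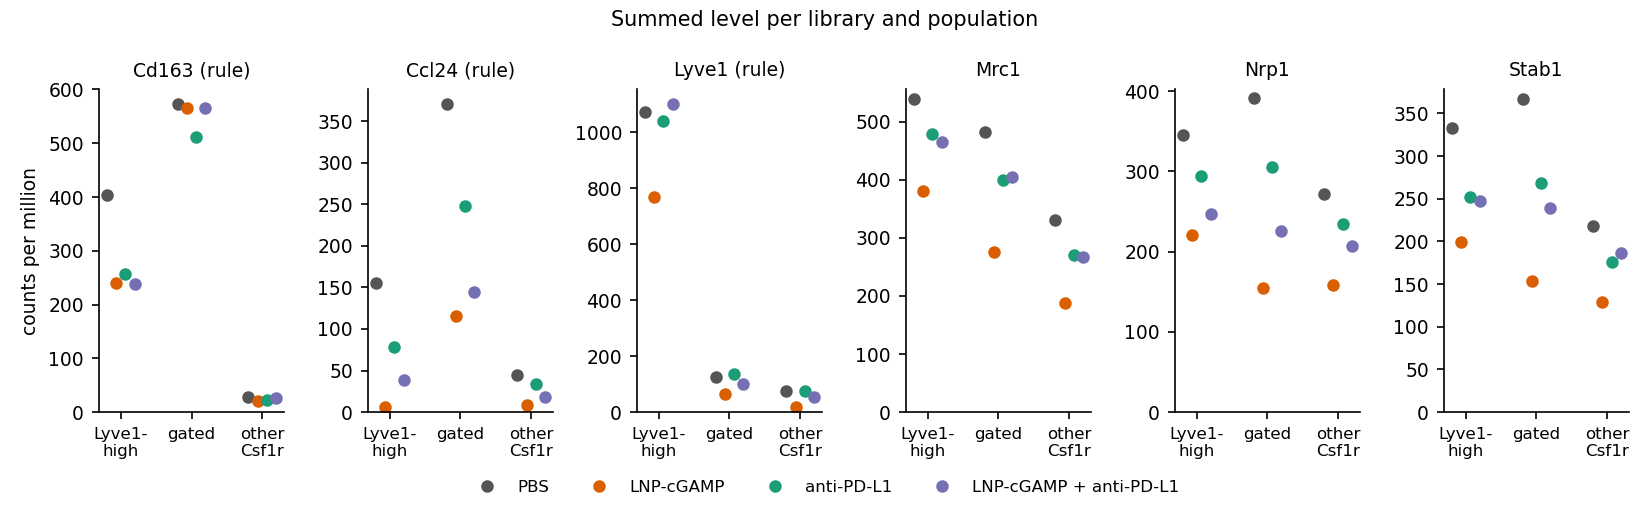
Summed level (CPM, linear axis from 0, a separate range per gene) of the selecting genes Cd163, Ccl24 and Lyve1 and of the markers Mrc1, Nrp1 and Stab1 in the Lyve1-high macrophages, the Cd163/Ccl24 macrophages (gated) and the other Csf1r cells; each point is 1 library. Mrc1 is at 275 to 482 CPM in the Cd163/Ccl24 macrophages and at 188 to 330 CPM in the other Csf1r cells.

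The populations were compared within libraries, with each library as a block and the 4 libraries as replicates, by edgeR's quasi-likelihood test with Benjamini-Hochberg adjustment over all genes tested. These p-values measure the spread over 4 libraries that also differ in treatment. The 6 genes of the definition were left out of all counts. Against the other Csf1r cells, 825 of 11586 genes (7.12%) were higher in the Cd163/Ccl24 macrophages and 1174 (10.1%) were lower at an adjusted p under 0.05. Without the anti-PD-L1 library 376 were higher and 830 lower, and without the combination library 428 were higher and 933 lower. Without cells that carried markers of other lineages, the counts were 528 higher and 742 lower. The other Csf1r cells were shallower than the Cd163/Ccl24 macrophages in each library, with median depths of 22395, 20344, 21173.5 and 19927 UMIs. The part of depth in these differences was not tested.

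Relative to the other Csf1r cells, the Cd163/Ccl24 macrophages had more RNA for uptake receptors, lysosomal proteins, haem handling and lipid handling. Of 19 scavenger and endocytic receptor genes tested, 11 rose and 2 fell, with a median log2 fold change of 0.34, against 0.00 over all genes. Mrc1 rose by a log2 fold change of 0.65 (SE 0.04, edgeR adjusted p = 2.47e-05) and Stab1 by 0.58 (SE 0.07, edgeR adjusted p = 0.000776). Nrp1 rose by 0.34 (SE 0.08, edgeR adjusted p = 0.0149), which was 0.0925 without the anti-PD-L1 library. Folr2 rose by 0.66 and Cd36, a receptor for lipids and apoptotic cells, by 0.45. The 2 that fell were the lectin receptors Clec4a2 and Clec4n.

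Haem and iron genes followed the same direction, with 7 of 14 higher and 2 lower. Hmox1 encodes haem oxygenase-1, which breaks down haem. It was at 4691, 4451, 4072 and 4068 CPM in the Cd163/Ccl24 macrophages and at 2112, 2940, 1508 and 2589 CPM in the other Csf1r cells, and the groups did not overlap. Its log2 fold change was 1.04 (SE 0.12, edgeR adjusted p = 0.000411). The haem transporter Slc48a1 rose by 0.62 and the ferritin heavy chain Fth1 by 0.28. The other members higher were the biliverdin reductases Blvra and Blvrb, Slc11a1 and Ftl1. Hp, which encodes haptoglobin, fell by 0.80, and Steap4 also fell.

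Of 19 lysosomal genes, 12 rose and none fell, with a median of 0.25. Among them were the cathepsins Ctsd (log2 fold change 0.45) and Ctsb (0.39). Of 19 lipid handling genes, 10 rose, among them Apoe (0.42), Pltp (0.50) and the lipase Lpl (0.81), and Fabp4 fell. Of 21 macrophage core genes 13 rose and none fell. The lists share members, so these counts are not separate. C1qa, C1qb, C1qc, Ctsb, Ctsd, Lgmn, Cd68 and Trem2 of the 13 were also in the complement, lysosomal, scavenger or lipid lists. Cd36 was in both the scavenger and lipid lists. The complement genes C1qa (0.54) and C1qb (0.42) rose and were among 6 of 13 complement genes that did, whereas 4 fell, among them C3. Of 9 CC chemokine genes 4 rose and none fell, with Ccl8 at a log2 fold change of 0.75 (SE 0.16, edgeR adjusted p = 0.0103, and 0.0600 without the anti-PD-L1 library). Pf4, a chemokine of platelets and resident macrophages, rose by 0.95.

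Several genes with large fold changes lay outside these lists. Cbr2, a carbonyl reductase of resident macrophages, rose by 1.04 (SE 0.08), the endothelin receptor Ednrb by 0.99 (SE 0.06) and the ectonucleotidase Enpp1 by 0.97 (SE 0.06), with edgeR adjusted p of 4.21e-05, 1.90e-05 and 1.68e-05. Sepp1, which encodes selenoprotein P, rose by 0.79. Arg1, which encodes arginase-1 and is a marker of alternative activation, rose by 0.76 (SE 0.09, edgeR adjusted p = 0.000576). It was at 4465, 2959, 4883 and 3996 CPM against 3500, 1486, 3111 and 2416 CPM. The list of alternative activation genes did not move together, with 4 of 17 higher and 8 lower.

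Antigen presentation, monocyte, proliferation and interferon genes were lower in the Cd163/Ccl24 macrophages than in the other Csf1r cells. Of 11 MHC class II genes, which present antigen to CD4 T cells, 9 fell and none rose, with a median of -1.24. H2-Aa was at 315, 154, 372 and 318 CPM against 1514, 260, 1162 and 606 CPM, and fell by 1.34 on the log2 scale (SE 0.22, edgeR adjusted p = 0.00266). Cd74, the class II invariant chain, fell by 1.18. Of 15 recruited monocyte genes 8 fell and 2 rose. Ccr2 fell by 1.01 (SE 0.10, edgeR adjusted p = 0.000235), Chil3 by 0.58, Fn1 by 0.53, Ms4a4c by 0.57 and Ly6c2 by 0.47. The call of Ly6c2 was lost without the combination library (edgeR adjusted p = 0.0690). Of 19 proliferation genes 13 fell, with Mki67 lower by 1.42 and Stmn1 lower by 1.20 as values of a drop on the log2 scale. Of 44 type I interferon response genes 13 fell and none rose, with Isg15 lower by 0.48 on that scale. Il1b, which encodes an inflammatory cytokine, fell by 1.70.

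The other Csf1r cells also held more RNA of other lineages. In the same test 6 of 7 T cell genes, 3 of 3 NK cell genes, 3 of 3 dendritic cell genes, 6 of 6 tumour genes and 6 of 7 neutrophil genes were lower in the Cd163/Ccl24 macrophages. This comparison is therefore with a mixed set of cells. Cells with the T, NK or B cell markers or the S100a8 plus S100a9 level given above were then left out. The 41 named genes that differed from the other Csf1r cells all remained past the threshold in the same direction. Of all 1999 genes called, 1251 stayed called in the same direction and 12 changed sign. That filter did not use dendritic cell or tumour genes, so the part of such cells in the differences was not tested.

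Against the Lyve1-high macrophages, 401 of 10660 genes (3.76%) were higher in the Cd163/Ccl24 macrophages and 625 (5.86%) lower by the same edgeR test. Only 29 Lyve1-high macrophages came from the LNP-cGAMP library, against 439, 476 and 383 in PBS, anti-PD-L1 and the combination. The Lyve1-high macrophages were also deeper, with median depths of 49646, 28266, 51260 and 47313 UMIs. Counts fell to 161 higher and 319 lower without the PBS library, and to 149 and 172 without the anti-PD-L1 library. Of the 1026 genes called, 426 were also called without PBS and 309 without anti-PD-L1, and none changed sign.

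Relative to the Lyve1-high macrophages, the Cd163/Ccl24 macrophages had more RNA of 8 of 15 recruited monocyte genes. Ccr2 was at 210, 249, 154 and 150 CPM against 15.7, 16.1, 8.30 and 14.8 CPM, with no overlap, at a log2 fold change of 3.75 (SE 0.13, edgeR adjusted p = 6.21e-08). Chil3, a chitinase-like protein, was at 810.5, 604, 1034 and 714 CPM against 97.5, 89.1, 149.8 and 61.5 CPM, at 3.05 (SE 0.12, edgeR adjusted p = 2.16e-07). None of the 15 fell, with a median of 0.62 against 0.01 over all genes. The others were Ly6c2 (1.25), Fn1 (1.15), Hp (2.55), Ms4a4c (1.54), Vcan and F10. Thus Ccr2, Chil3, Fn1, Hp, Ms4a4c and Ly6c2 were higher than in the Lyve1-high macrophages and lower than in the other Csf1r cells. Both comparisons share the Cd163/Ccl24 macrophages, so they are given side by side.

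**Figure D3:**
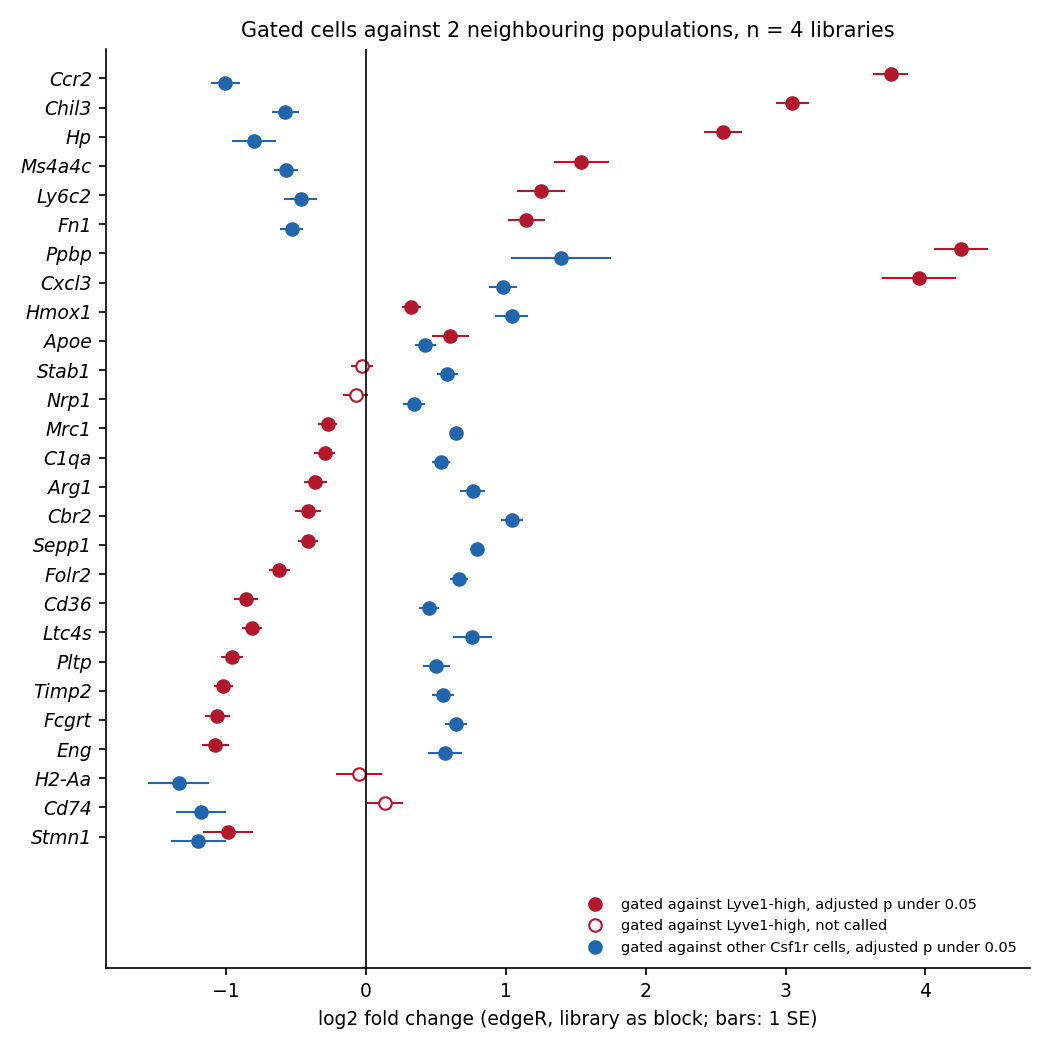
log2 fold changes (edgeR, bars 1 SE, n = 4 libraries) of named genes in the Cd163/Ccl24 macrophages (gated) against the Lyve1-high macrophages (red) and against the other Csf1r cells (blue); open points did not pass an adjusted p of 0.05. Ccr2 lies at 3.75 and -1.01, whereas Folr2 lies at -0.62 and 0.66.

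Some chemokine genes were also higher than in the Lyve1-high macrophages: of 9 CC genes 3 rose (Ccl2, Ccl7 and Ccl12) and none fell. Of 9 CXC genes Cxcl3, Cxcl14, Cxcl16 and Ppbp rose and Cxcl1 fell. Ccl2 and Ccl7, ligands that draw monocytes, rose by 1.09 (SE 0.16) and 0.89 (SE 0.19), with edgeR adjusted p of 0.00211 and 0.0129. The platelet and neutrophil chemokine Ppbp was at 132, 51.4, 39.7 and 35.4 CPM against 7.03, 1.24, 0.976 and 3.16 CPM, a log2 fold change of 4.25 (SE 0.19, edgeR adjusted p = 7.03e-07). Its UMIs lay in few cells: the top 10 Cd163/Ccl24 macrophages held 51.2%, 90.2%, 93.7% and 87.7% of them. Cxcl3, a neutrophil chemokine, rose by 3.96 and the matrix protein Thbs1 by 2.24. Il1b rose by 1.77 (SE 0.10, edgeR adjusted p = 3.18e-06). Apoe rose by 0.60 and Hmox1 by 0.32, and both calls were lost without the anti-PD-L1 library (edgeR adjusted p = 0.123 and 0.203). The call of Hmox1 was also lost without PBS (edgeR adjusted p = 0.117). Hbb-bs, a haemoglobin gene, had a log2 fold change of 3.17 (SE 0.46, edgeR adjusted p = 0.00172) and was higher in 2 of 4 libraries. This was not stable: DESeq2 gave an adjusted p of 0.462, and the fold change was -0.83 at 6 UMIs of Cd163 plus Ccl24 per 10000. Single cells held 93.2% of the haemoglobin UMIs in PBS and 96.6% with anti-PD-L1.

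Of 13 tested genes of resident serous-cavity macrophages, Icam2, Cd5l and Marco fell relative to the Lyve1-high macrophages, and Gata6 and Apoc1 rose. The scavenger receptor Marco fell by 1.99 on the log2 scale (SE 0.15, edgeR adjusted p = 2.58e-05), the ficolin Fcna by 1.42 (SE 0.10, edgeR adjusted p = 1.98e-05) and the secreted scavenger protein Cd5l by 1.05. Eng, Fcgrt and Timp2 fell by 1.08, 1.06 and 1.02. Pltp fell by 0.96, Cd36 by 0.86, Ltc4s by 0.82, Lpl by 0.80 and Folr2 by 0.62. Of 19 scavenger and endocytic receptor genes 6 fell and 2 rose. The intermediate genes, lower here and higher than in the other Csf1r cells, thus included Folr2, Cd36, Pltp, Timp2, Fcgrt, Ltc4s and Lpl. Smaller falls were measured for Mrc1 (by 0.27), C1qa (by 0.30), Cbr2 (by 0.42), Sepp1 (by 0.42) and Arg1 (by 0.36). Without the anti-PD-L1 library their edgeR adjusted p were 0.214, 0.250, 0.0918, 0.0940 and 0.0674. Without PBS those of Mrc1, C1qa, Cbr2 and Arg1 were 0.119, 0.205, 0.0975 and 0.0980.

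Stab1 and Nrp1 did not pass the test against the Lyve1-high macrophages, with log2 fold changes of -0.03 (SE 0.08) and -0.07 (SE 0.09) and edgeR adjusted p of 0.875 and 0.672. None of 10 MHC class II genes passed it in either direction. Of 19 proliferation genes 13 fell, with Stmn1 lower by 0.98 as a drop on the log2 scale and an edgeR adjusted p of 0.0865 without the anti-PD-L1 library. The type I interferon response list showed 5 higher and 4 lower of 44.

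Treatments were compared by the ratio of CPM summed over the Cd163/Ccl24 macrophages, written as a log2 ratio after adding 10 CPM to both sides. A gene counted as past the fold when it differed by 1.5-fold on that scale, among 3242 genes with at least 50 CPM in 1 library. With LNP-cGAMP, 349 genes (10.8%) were higher than in PBS and 270 (8.33%) lower. With anti-PD-L1, 38 (1.17%) were higher and 37 (1.14%) lower. With the combination, 154 (4.75%) were higher than in PBS and 56 (1.73%) lower. The comparisons with PBS share 1 PBS library, and no count has a test behind it. A gene could pass the level filter only through the library in which it was high. Counts and medians of gene lists below therefore partly reflect this filter, and its part was not tested.

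Saa3 and Slpi were among the genes chosen for the highest ratios with LNP-cGAMP. Saa3, the serum amyloid A gene of macrophages at chr7:46711998-46715700 on the minus strand, was at 256 CPM in PBS, 10173 with LNP-cGAMP, 281 with anti-PD-L1 and 6811 with the combination. It was low in both libraries without LNP-cGAMP and high in both with it. LNP-cGAMP was 39.7-fold above PBS (counting interval 38.3 to 41.1), a log2 ratio of 5.26, and the combination had a log2 ratio of 4.55 to anti-PD-L1. At least 1 Saa3 UMI was found in 49.4%, 100%, 63.2% and 98.7% of the cells. The median level per cell was 0, 63.1, 0.33 and 11.1 per 10000. Cells with 50 or more Saa3 UMIs per 10000 numbered 2, 74, 2 and 49, or 0.487%, 56.5%, 0.766% and 32.9%. Slpi, which encodes a secreted inhibitor of neutrophil proteases, was at 89.2, 908, 93.3 and 1089 CPM, with log2 ratios of 3.21 for LNP-cGAMP to PBS and 3.41 for the combination to anti-PD-L1.

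Other genes were higher both with LNP-cGAMP against PBS and with the combination against anti-PD-L1. Ccl5, a chemokine that attracts T cells, was at 4.73, 1080, 16.4 and 151 CPM, with log2 ratios of 6.21 and 2.61. With anti-PD-L1, 117 of its 157 UMIs lay in 1 cell. Mmp8, a collagenase, was at 7.09, 182, 5.85 and 72.6 CPM (3.49 and 2.38), and Gpnmb, a transmembrane glycoprotein of lipid-laden macrophages, at 8.74, 93.3, 8.35 and 70.6 CPM (2.46 and 2.13). Serpinb2 was at 1.58, 25.4, 3.66 and 80.8 CPM and Ctla2b at 7.95, 56.7, 7.31 and 86.6 CPM. Hspb1, a small heat-shock protein, was at 32.2, 165.1, 6.997 and 49.99 CPM, and S100a9 at 132, 487, 62.1 and 293 CPM. The direction of Hspb1 and S100a9 with LNP-cGAMP depended on the weighting of cells: Hspb1 had a log2 ratio of -0.76 in cells with UMIs of both genes, and S100a9 had -0.14 with each cell weighted equally. Ctla2b and Ly6c2 have near-identical paralogs, so their counts are uncertain.

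The genes chosen for the lowest ratios in the same pair of comparisons had varied roles. Fn1 was at 439, 65.6, 271 and 152 CPM, with log2 ratios of -2.57 and -0.80. Its fold of LNP-cGAMP to PBS was 0.150 (counting interval 0.131 to 0.171). The lipase Lpl was at 273, 93.6, 309 and 178 CPM (-1.45 and -0.76). Hspa5, the main chaperone of the endoplasmic reticulum, was at 938, 444, 874 and 529 CPM (-1.06 and -0.71). The same direction was seen for Sdf2l1 (-1.18 and -0.79), Rpn1 (-1.25 and -0.72), the spermidine synthase Srm (-1.73 and -0.71), Psat1 (-1.60 and -0.89), Ybx3 (-1.24 and -0.70), Wfdc21 (-1.06 and -0.97) and Agfg1 (-0.90 and -0.77). Lyz2, the lysozyme of myeloid cells, was at 7209, 2087, 5460 and 3392 CPM, a log2 ratio of -1.78 with LNP-cGAMP and -1.09 with the combination, both to PBS.

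Interferon response genes were higher as a group with LNP-cGAMP. Of 37 type I interferon response genes measured, 25 were higher than in PBS and none lower, with a median log2 ratio of 0.97 against -0.02 to 0.00 over all genes in the 5 comparisons. Ifit3 was among the 37 only through the libraries that received LNP-cGAMP, so its entry depended on the difference counted. Irf7, a transcription factor of the interferon response, was at 236, 964, 298 and 571 CPM, a log2 ratio of 1.98. Isg15, a ubiquitin-like protein, was at 202, 518, 249 and 350 CPM (1.31). Ifit3 was at 27.8, 79.0, 24.3 and 55.1 CPM (1.24), Rsad2 at 31.6, 134.6, 50.8 and 90.5 CPM (1.80), and Ifi27l2a at 613, 2111, 677 and 2030 CPM (1.77). In these genes LNP-cGAMP was the highest library, the combination the second, and PBS and anti-PD-L1 the lower pair. Cxcl10, an interferon-induced chemokine, was at 52.7, 172, 61.6 and 123 CPM (1.54), but its log2 ratio was -0.05 in cells with at least 6 UMIs of Cd163 plus Ccl24 per 10000.

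The promoters of Saa3, Isg15 and Ifit3 are shown because each holds the spaced GAAA repeat found in many interferon-responsive promoters. The motif searched was GAAA, any 2 bases and GAAA again, on both strands, in the 300 bases from 250 before to 50 after the annotated start (RefSeq, GRCm38.p6). Each sequence runs 5′ to 3′ on the strand of the gene, and capitals mark matches to the motif or to its reverse complement.
Saa3 (chr7:46715627-46715926, minus strand): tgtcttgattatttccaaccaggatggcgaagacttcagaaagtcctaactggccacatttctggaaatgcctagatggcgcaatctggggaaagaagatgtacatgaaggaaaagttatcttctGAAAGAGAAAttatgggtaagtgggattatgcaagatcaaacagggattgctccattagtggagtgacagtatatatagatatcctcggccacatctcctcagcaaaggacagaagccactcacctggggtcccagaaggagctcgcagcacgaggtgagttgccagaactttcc
Isg15 (chr4:156200769-156201068, minus strand): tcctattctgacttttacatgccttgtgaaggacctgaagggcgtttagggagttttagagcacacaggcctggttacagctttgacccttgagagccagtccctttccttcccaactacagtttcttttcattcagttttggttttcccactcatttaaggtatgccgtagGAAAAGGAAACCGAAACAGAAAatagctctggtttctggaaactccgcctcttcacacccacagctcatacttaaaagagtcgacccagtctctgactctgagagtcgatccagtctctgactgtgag
Ifit3 (chr19:34583279-34583578, plus strand): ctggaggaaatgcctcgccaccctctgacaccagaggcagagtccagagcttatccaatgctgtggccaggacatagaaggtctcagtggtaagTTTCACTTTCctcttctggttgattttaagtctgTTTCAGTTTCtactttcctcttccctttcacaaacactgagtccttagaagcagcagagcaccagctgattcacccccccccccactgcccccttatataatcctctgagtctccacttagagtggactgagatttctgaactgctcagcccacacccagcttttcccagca

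The Saa3 window held 1 match, which began 125 bases before the start. The Isg15 window held 3 overlapping matches, of which the first began 78 bases before the start, and the Ifit3 window held 2, which began 156 and 122 bases before it. Of 39 promoters of the type I interferon list that were in the table, 20 (51.3%) held a match, and of the 24 whose genes were past the fold with LNP-cGAMP, 11 (45.8%) did. The share over all 32851 promoters was 3.44%. Matches were found in 5 of 18 promoters of MHC class I genes, 1 of 9 of MHC class II genes and 0 of 17 of scavenger receptor genes. A match describes the letters of the window and not binding.

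MHC class I and class II genes lay on opposite sides with LNP-cGAMP. Of 16 class I presentation genes measured, 8 were higher than in PBS and none lower, with a median of 0.60. H2-K1, a class I heavy chain, was at 1898, 4244, 2101 and 3417 CPM (log2 ratio 1.16 with LNP-cGAMP), H2-D1 at 3016, 5315, 3196 and 4009 CPM (0.82) and B2m, the shared light chain, at 2282, 4103, 2522 and 3622 CPM (0.84). H2-Q7 was at 45.5, 328, 73.4 and 249 CPM (2.61) and H2-Q6 at 5.09, 99.996, 11.0 and 67.0 CPM, although reads of H2-Q6 and H2-Q7 cannot be split with certainty. Of 8 class II genes, 5 were lower and none higher, with a median of -0.77. Cd74 was at 1147, 550, 1418 and 1150 CPM (-1.05), H2-Aa at 315, 154, 372 and 318 CPM (-0.99) and H2-Eb1 at 169, 53.3, 151 and 141 CPM (-1.5001). LNP-cGAMP was the lowest library for these 3 genes in pooled cells. The male-called cells of the combination were lower still for H2-Aa and Cd74, at 78.1 and 262 CPM, and its female-called cells were at 420 and 1490 CPM.

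**Figure D4:**
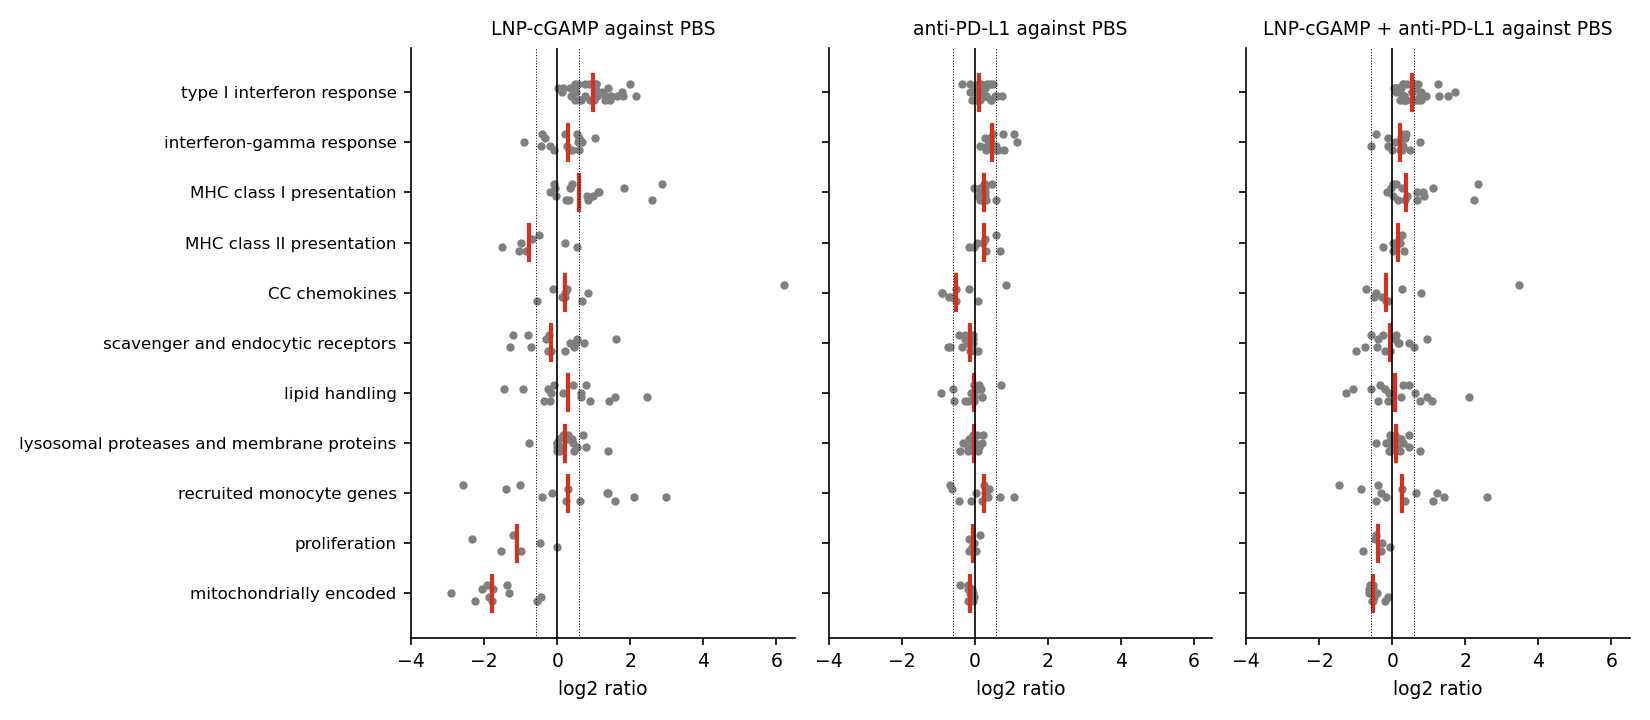
log2 ratio to PBS of each measured gene (grey points) of 11 gene lists in the Cd163/Ccl24 macrophages, with the median of each list in red and dotted lines at 1.5-fold; 1 library per treatment, so there are no error bars. With LNP-cGAMP the medians are 0.97 for the type I interferon response, 0.60 for MHC class I, -0.77 for MHC class II and -1.79 for mitochondrially encoded genes.

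Further groups differed with LNP-cGAMP against PBS. The 11 mitochondrially encoded genes had a median of -1.79, with 9 lower. mt-Co3, a subunit of the respiratory chain, was at 7117, 2097, 6765 and 4965 CPM. Of 6 proliferation genes measured 4 were lower and none higher, with Tubb5 at 661, 219, 594 and 378 CPM (-1.55). Of 15 scavenger and endocytic receptor genes, 4 were lower: Stab1 (-1.20), Nrp1 (-1.28), Mrc1 (-0.79) and Fcna. The 2 higher were Clec10a (1.60) and Scarb2. Of 16 lipid handling genes 7 were higher, among them Plin2, a coat protein of lipid droplets (0.66), and Npc2, a lysosomal cholesterol carrier (0.80), and 2 were lower. Secreted matrix proteins moved in both directions, with Spp1, osteopontin, at 151, 670, 189 and 451 CPM (2.08), Ecm1 at 600, 1740, 522 and 984 CPM (1.52), and Fn1 lower as above. Ly6c2 was at 106, 906, 232 and 693 CPM (2.98), Hp at 89.3, 286, 82.2 and 203 CPM (1.58), and Il18bp, a decoy for interleukin-18, at 235, 431, 292 and 373 CPM (0.85). Alox5, which starts leukotriene synthesis, was at 53.8, 3.91, 26.9 and 17.7 CPM (-2.20).

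The neutrophil list was also higher with LNP-cGAMP, with all 4 measured genes past the fold and a median log2 ratio of 2.39. Mmp8 was among the 4 only because it passed the level filter in the libraries that received LNP-cGAMP. This median was 1.01 without the cells that carried markers of other lineages and 0.30 with each cell weighted equally. For type I interferon the corresponding values were 0.92 and 0.93, against 0.97 in all cells. For MHC class II they were -0.83 and -1.05, against -0.77, and for the mitochondrially encoded genes -1.80 and -1.48, against -1.79. In cells with UMIs of both Cd163 and Ccl24, the type I interferon median was 1.14 and the class II median -0.27.

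With anti-PD-L1 the differences from PBS were few. Genes of the interferon-gamma response were slightly higher: 5 of 16 were past the fold and none lower, with a median of 0.47, and of 0.53 in male-called cells. Between the combination and LNP-cGAMP the same list had a median of -0.05, with 1 higher (Gbp2b) and 2 lower (Irgm2 and Irf1), and of -1.31 in male-called cells with the level filter reapplied. Gbp2b, an interferon-induced GTPase, was at 120, 58.9, 278 and 211 CPM, a log2 ratio of 1.14 to PBS with the antibody alone and 1.68 between the combination and LNP-cGAMP. In male-called cells these were 1.11 and -1.63, so the second turned. Gbp5 was at 61.0, 84.4, 114 and 88.3 CPM (0.80 to PBS for anti-PD-L1) and Cd274, which encodes PD-L1 itself, at 119, 152, 189 and 145 CPM (0.62). The class II loading factors H2-DMb1, at 91.6, 46.4, 154 and 116 CPM, and H2-DMa, at 139, 95.8, 211 and 170 CPM, had positive ratios in both comparisons (0.69 and 1.16, 0.57 and 0.77), of which the 0.57 of H2-DMa was under the fold. Pla2g16 (0.60 and 0.86), Slamf8 (0.91 and 0.52) and Cnn3 (1.07 and 0.52) had the same direction. In male-called cells the ratio of the combination to LNP-cGAMP turned for all 5: -0.41 for H2-DMb1, -0.50 for H2-DMa, -0.26 for Pla2g16, -0.67 for Slamf8 and -1.56 for Cnn3.

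Chemokine genes were lower with anti-PD-L1 than in PBS. Of 9 CC chemokine genes, Ccl2, Ccl3, Ccl7 and Ccl8 were lower and Ccl5 higher, with a median of -0.52. The higher level of Ccl5 rested mostly on 1 cell, which held 117 of its 157 UMIs with anti-PD-L1. Ccl2 was at 1431, 1676, 934 and 1009 CPM (-0.61), Ccl3 at 105, 123, 51.4 and 73.8 CPM (-0.91) and Ccl8 at 1134, 2037, 602 and 1950 CPM (-0.90). Of 5 CXC chemokine genes 4 were lower: Cxcl2 (-1.37), Cxcl3 (-1.32), Pf4 (-0.63) and Ppbp. Pf4 was at 5178, 5406, 3338 and 4943 CPM. Ccl2 and Ccl3 were also lower with the combination than with LNP-cGAMP (-0.73 and -0.67), but in male-called cells Ccl3 turned to 0.38 and Ccl2 had -1.31. In all cells Ccl8 and Cxcl3 differed there by -0.06 and -0.07. Ier3, an early response gene, was at 175, 220, 113 and 140.5 CPM (-0.59 and -0.61, the second -0.38 in male-called cells). Apoe, the apolipoprotein of macrophages, was at 3481, 3107, 1820 and 1434 CPM, with log2 ratios of -0.93 to PBS with the antibody alone and -1.11 between the combination and LNP-cGAMP. In male-called cells they were -0.36 and -0.53.

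With the combination, the genes highest over PBS were largely those of LNP-cGAMP: Saa3 (log2 ratio 4.68), Slpi (3.47), Ccl5 (3.45), Serpinb2 (2.97), Ly6c2 (2.60) and Ctla2b (2.43). The lowest were Ppbp (-1.64), Fn1 (-1.47), Apoe (-1.27), Alox5 (-1.20), Erdr1 (-1.09) and Lyz2 (-1.09). Of 37 type I interferon genes, 16 were higher than in PBS and none lower, with a median of 0.53. In male-called cells 5 were higher and 7 lower, with a median of -0.03. Over the same 3242 genes, 279 were higher and 440 lower in male-called cells, with a median of -0.10. Against anti-PD-L1 alone, 95 genes (2.93%) were higher and 38 (1.17%) lower, and 10 of the 37 interferon genes were among the higher, with a median of 0.33 (male-called cells -0.16, female-called cells 0.39). Against LNP-cGAMP alone, 84 genes (2.59%) were higher and 93 (2.87%) lower. In that comparison 7 of 37 type I interferon genes were lower (median -0.41), and 6 of 8 MHC class II genes (median 0.94) and 9 of 11 mitochondrially encoded genes (median 1.26) were higher. In male-called cells the class II median turned to -0.57 and the mitochondrial one was 1.02.

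The share of the population was lower in female-called than in male-called cells within both mixed pools. With anti-PD-L1 the Cd163/Ccl24 macrophages were 14.1% of the male-called kept cells (107 of 757) and 8.17% of the female-called ones (132 of 1616). With the combination they were 7.47% (37 of 495, Clopper-Pearson 5.32 to 10.2%) and 4.53% (82 of 1809, 3.62 to 5.60%). In the male-called cells of PBS and LNP-cGAMP the shares were 19.4% (365 of 1879, 17.7 to 21.3%) and 4.38% (118 of 2693, 3.64 to 5.22%). The order PBS, anti-PD-L1, combination, LNP-cGAMP held among male-called cells. A call needs a UMI of these genes, so kept cells without one were left out of these shares. In PBS, where no cell of the population was called female, the share was 14.6% of all kept cells and 19.4% of the male-called ones. Whether calls were missed equally often for both sexes was not tested.

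In the combination library the male-called and female-called Cd163/Ccl24 macrophages had different makeup and profiles. Of the 37 male-called cells 30 had Cd163 and no Ccl24 UMI and 5 had both genes, against 37 and 38 of the 82 female-called cells. Over all cells of that library, Saa3 was at 9424 CPM in the cells with Cd163 alone and 3588 CPM in those with both genes, and the part of this makeup in the difference was not tested. Saa3 was at 20243 CPM in the 37 male-called cells and 2078 CPM in the 82 female-called cells, and 31 (83.8%) and 8 (9.76%) cells had 50 or more Saa3 UMIs per 10000. H2-Aa was at 78.1 against 420 CPM, Cd74 at 262 against 1490 CPM, Gbp2b at 12.8 against 278 CPM and Isg15 at 95.2 against 395 CPM. Slpi was at 1303 against 707 CPM and Ccl5 at 398 against 76.3 CPM. The male-called cells were thus high in Saa3, Slpi and Ccl5 and low in interferon and class II genes. Of 16 interferon-gamma response genes 15 were lower in the male-called cells and none higher (median -1.20), and of 37 type I interferon genes 17 were lower and 1 higher (median -0.50). Over all 3242 genes, 187 were higher and 377 lower.

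Within the anti-PD-L1 library the same contrast was small, with 25 genes higher and 32 lower in male-called cells, and medians of 0.04 for the interferon-gamma list and 0.00 for MHC class II. Saa3 was at 171 and 356 CPM there, H2-Aa at 367 and 359 CPM and Gbp2b at 277 and 281 CPM. Among male-called cells alone, LNP-cGAMP had a type I interferon median of 0.98 to PBS, with 25 of 37 higher and none lower. Over all 3242 genes, 341 were higher and 273 lower in that comparison. Among female-called cells the combination had 7 of 37 type I interferon genes higher than anti-PD-L1 and none lower. Over all 3242 genes, 53 were higher and 17 lower there.

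**Figure D5:**
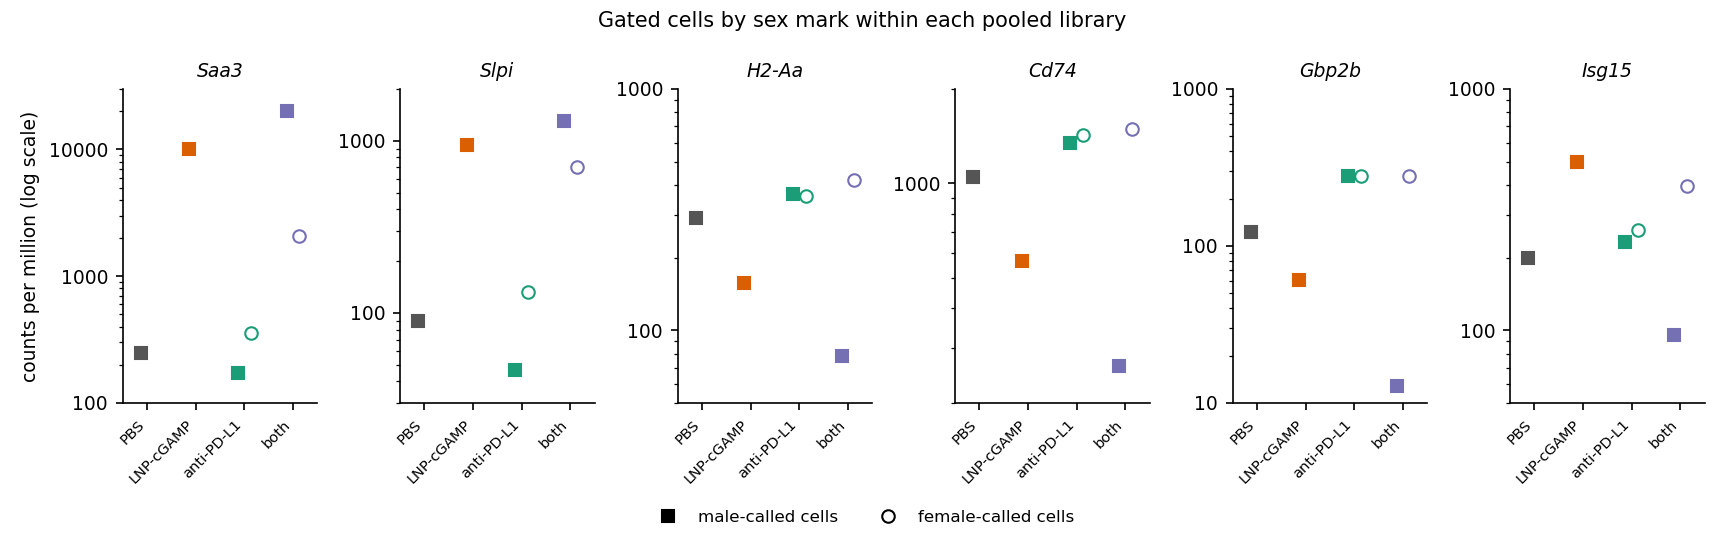
Levels (CPM, log axis, a separate range per gene) of 6 genes in male-called and female-called Cd163/Ccl24 macrophages of each library; points are summed counts, with no replicates, and PBS and LNP-cGAMP had no female-called cells. In the combination library Saa3 is at 20243 CPM in male-called and 2078 CPM in female-called cells, and H2-Aa at 78.1 and 420 CPM.

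The difference with LNP-cGAMP was set beside that of the other populations of the same libraries, which share treatment and pool. The type I interferon median to PBS was 0.97 in the Cd163/Ccl24 macrophages, 0.96 in the Lyve1-high macrophages and 0.86 in the other Csf1r cells, with 25, 29 and 34 of 37 genes higher and none lower. MHC class I medians were 0.60, 0.75 and 0.71. The mitochondrially encoded genes had medians of -1.79, -1.71 and -1.63. MHC class II had medians of -0.77, 0.24 and -1.84, and CC chemokines 0.23, 0.08 and 0.88. Saa3 was at 310, 10787, 620 and 1801 CPM in the Lyve1-high macrophages in the same order of libraries, and at 426, 5698, 483 and 5190 CPM in the other Csf1r cells. The differences between populations in these responses were not tested. Values for LNP-cGAMP in the Lyve1-high macrophages rest on 29 cells.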

How the data were processed

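Per the file headers, the deposited matrices, 1 per library, came from Cell Ranger 3.0.2, and their unit is the raw UMI count. They held 27998 genes, no normalization and all 6794880 possible barcodes. The build was mm10 per the submitters' processing notes. The labels give different kit versions in different places, and the version was not settled. Red cells were lysed and 4000 cells were loaded per library, per the labels.

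Barcodes with at least 1000 UMIs, at least 200 genes and at most 10% mitochondrially encoded UMIs were kept, which left 2821, 3830, 3379 and 3548 cells for PBS, LNP-cGAMP, anti-PD-L1 and the combination. The mitochondrial limit removed 240, 80, 66 and 170 barcodes. Doublets were not called, so some may remain. Lymphocyte-type and neutrophil-type cells were set by marker UMIs. The members, the 35 gene lists (466 of 475 genes found) and the tests were chosen with earlier results of these data known. Samples were grouped by their labels.

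Counts were summed per library and population. Treatments were compared by log2 ratios with a pseudocount of 10 CPM over genes with at least 50 CPM in 1 library and at least 20 UMIs. Populations were tested with edgeR 4.0.16 (R 4.3.3; quasi-likelihood, library as block, TMM scaling), and DESeq2 1.42.0 was an alternative. The edgeR standard errors are the absolute log2 fold change divided by the square root of F. Other alternatives changed the definition of the population, the depth minimum, the gene filter, the pseudocount, the scaling, the weight of each cell and the sex call, and left out each library. The edgeR script was tested on simulated data. numpy 2.4.6, scipy 1.17.1 and pandas 2.3.3 were used. Named genes were those with the largest differences per comparison, the same direction being required in both comparisons of an agent, plus the most abundant members of each list and the markers. Further list members and genes of the comparison by sex call were named after their values were seen. Gene positions came from GENCODE M21 and promoters from RefSeq (GRCm38.p6).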

Additional observations from a re-analysis of the deposited data

Results flagged for a closer look

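MHC class II genes and immediate early and heat-shock genes differed between the male-called and female-called Cd163/Ccl24 macrophages when the combination was set against anti-PD-L1, and the difference was not tested. The median log2 ratio of the MHC class II genes was -1.92 in male-called cells and 0.18 in female-called cells, a difference of -2.09. Each direction rests on 1 sum of cells per pool and call. The median of the immediate early and heat-shock genes was 0.61 in male-called cells and -0.23 in female-called cells, a difference of 0.84. The combination pool held 37 male-called and 82 female-called cells of the population, against 107 and 132 with anti-PD-L1. No group had enough samples for a search for single samples far from the rest.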

How the results depend on the processing

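Share of Csf1r cells, in the order PBS, LNP-cGAMP, anti-PD-L1, combination, moved beyond counting error to 14.5%, 2.60%, 6.60% and 2.89% at 6 per 10000, 13.2%, 4.59%, 6.96% and 4.07% by Cd163 alone, 10.5%, 0.779%, 4.64% and 1.29% by Ccl24 alone, 15.5%, 1.04%, 7.05% and 1.90% with UMIs of both, and 25.4%, 13.9% and 7.32% for PBS, anti-PD-L1 and the combination when thinned. PBS stayed highest. Genes past the fold moved by over 1.5 times with a filter of 10 CPM: 539 and 517 (higher and lower) for LNP-cGAMP to PBS, 92 lower for the combination to PBS, 155 and 64 to anti-PD-L1, and 186 and 152 to LNP-cGAMP. In male-called cells, with the level filter reapplied, they were 320 and 446 for the combination to PBS. To anti-PD-L1 they were 320 and 485, and to LNP-cGAMP 241 were lower. Lower genes of the combination to anti-PD-L1 were 73 at 6 per 10000 and 76 with cells weighted equally. To LNP-cGAMP, 130 were higher by Cd163 alone, and 152 and 158 differed with UMIs of both.

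Directions that turned were, in male-called cells for the combination to LNP-cGAMP, the MHC class II median (-0.57), Cd74 (-1.08), H2-Aa (-0.92), H2-Eb1 (-0.64), H2-DMb1 (-0.41), H2-DMa (-0.50), Gbp2b (-1.63), Pla2g16 (-0.26), Ccl3 (0.38) and Hspb1 (0.18). With UMIs of both genes, Hspb1 turned for LNP-cGAMP to PBS (-0.76) and the combination to LNP-cGAMP (1.02), and S100a9 for anti-PD-L1 to PBS (0.38) and the combination to LNP-cGAMP (0.95). With equal weights S100a9 turned in 2 comparisons (-0.14 for LNP-cGAMP to PBS, 1.32 for the combination to LNP-cGAMP). The neutrophil median of the combination to LNP-cGAMP was 0.78 with UMIs of both and 0.81 with equal weights. At 6 per 10000, Cxcl10 for LNP-cGAMP to PBS was -0.0474, Hspb1 for anti-PD-L1 to PBS was 0.0436, and Hbb-bs against Lyve1-high macrophages was -0.83. The causes were not tested.

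Without the library as a replicate block, which treats the paired populations of a library as unrelated, edgeR called 15 higher and 3 lower genes against Lyve1-high macrophages and 43 and 321 against other Csf1r cells, and 28 of 34 and 34 of 41 named calls were lost. Leaving out 1 library gave 149 to 517 higher and 172 to 749 lower genes against Lyve1-high macrophages, and 376 to 796 and 830 to 1330 against other Csf1r cells. Against Lyve1-high macrophages no filter gave 649 and 1042, and UMIs of both genes 200 and 307. Against other Csf1r cells UMIs of both genes gave 546 higher, and without other-lineage cells the counts were 528 and 742. DESeq2 called 293 and 421, and 676 and 929. Ly6c2 and Ppbp against other Csf1r cells were lost in DESeq2 (adjusted p = 0.0828 and 0.118), as was Hbb-bs against Lyve1-high macrophages (0.462). The LNP-cGAMP and combination values rest on 131 and 149 cells.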

Other observations

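A few cells carried most of the RNA of some genes that mark other macrophage or blood states. Retnla, a marker of alternatively activated macrophages, had 146 UMIs in the Cd163/Ccl24 macrophages of PBS, of which 137 lay in 1 cell. With anti-PD-L1 it had 422 UMIs, of which 417 lay in 1 cell. None was found with LNP-cGAMP or the combination.

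Haemoglobin RNA had 7755 UMIs in PBS, of which 7224 (93.2%) lay in 1 cell. With anti-PD-L1 1442 of 1493 haemoglobin UMIs (96.6%) lay in 1 cell. LNP-cGAMP and the combination held 28 and 25 haemoglobin UMIs, spread over 19 cells each. Saa3 was spread more widely in the libraries that received LNP-cGAMP: the top 10 cells held 30.2% of its UMIs with LNP-cGAMP and 38.2% with the combination. In PBS and with anti-PD-L1 they held 45.2% and 59.3%.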
